A study of Homo sapiens with 27 samples.

Results

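The genes described here are 10 genes of glycolysis and of the response to low oxygen, namely SLC2A1, HK2, PFKFB3, PFKFB4, PGK1, ENO1, LDHA, PDK1, CA9 and VEGFA. They were chosen by name, and each had 1 row in a table of 24566 genes that held the read counts of 27 RNA-seq libraries. The libraries came from 2 established human cancer cell lines in 9 groups of 3 replicates, harvested 48 h after the start of treatment. MDA-MB-231, a breast adenocarcinoma line, was left untreated or received CKI (1 mg/ml), 5-fluorouracil (5-FU, 10 µg/ml) or both. A431, an epidermoid carcinoma line, was left untreated or received a vehicle, CKI (1 mg/ml), doxorubicin, or doxorubicin together with CKI. CKI (compound Kushen injection) is an extract of plant roots, 5-FU is a pyrimidine analogue that disturbs nucleotide synthesis, and doxorubicin is an anthracycline that damages DNA. What the vehicle held is not labelled, and the dose of doxorubicin is not given here because the labels name more than 1 dose without assigning it. All groups of a line shared the medium and its serum, and each line stands for a single tumour cell population. The labels call the replicates biological without saying whether they were separate cultures on separate days, so the p-values measure the spread between these libraries.

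Glycolysis turns glucose into pyruvate and yields ATP without oxygen. Cells take up glucose through carriers in the membrane, trap it by phosphorylation, split it into 3-carbon sugars and either reduce the pyruvate to lactate or burn it in mitochondria. When oxygen is scarce, the transcription factor HIF-1, made of an oxygen-labile alpha subunit and the partner ARNT, escapes degradation and binds short DNA elements near its target genes. Many tumour cell lines use glycolysis heavily in normal oxygen, and the 10 genes are all known HIF-1 targets. SLC2A1 encodes the glucose carrier GLUT1 and HK2 the hexokinase that traps glucose. PFKFB3 and PFKFB4 encode enzymes that set the level of fructose 2,6-bisphosphate, the activator of phosphofructokinase. PGK1 and ENO1 act late in glycolysis, LDHA makes lactate from pyruvate, and PDK1 is the kinase that keeps pyruvate out of the mitochondrial pyruvate dehydrogenase. CA9 encodes a carbonic anhydrase of the cell surface that handles acid, and VEGFA the growth factor that draws in blood vessels.

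HIF-1 recognises the 5 bases ACGTG or GCGTG, and the promoter letters are shown because they are the feature that the name of the gene group implies. RefSeq (GRCh38.p14) gave a window of 250 bases before to 50 bases after the start of 9 of the 10 genes, and the windows were placed on GRCh37 by exact match. At least 1 of these cores, on either strand, stood in 9 of 9 windows, against 48.4% of all 35116 promoter windows and 53.7% of the 24070 windows of genes in the count table. ACGTG alone stood in 6 of 9 windows against 21.4% of all windows and 22.9% of those of the table's genes, and GCGTG alone in 6 of 9 against 36.5% and 41.8%. In SLC2A1 the core lay after the start site, and for the 8 others a stretch of 60 bases before it is printed along the gene's strand. Capitals mark the cores in either direction, so that CACGT and CACGC are the reverse reading of ACGTG and GCGTG, and CACGTG, also called the E-box, holds the core on both strands. For each of the 9 genes only the window nearest the start of its canonical transcript was counted, while the shares count every window of a gene. The 9 windows held from 62.0% (CA9) to 77.0% (PDK1) G and C. That content is not given for the other windows, and its part in the shares was not tested. A match of letters is not a measured binding site.
HK2 (chr2:75061159-75061218, forward strand): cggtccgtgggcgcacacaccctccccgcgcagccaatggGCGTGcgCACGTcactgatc
PFKFB3 (chr10:6244757-6244816, forward strand): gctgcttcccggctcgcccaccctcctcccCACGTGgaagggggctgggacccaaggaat
PFKFB4 (chr3:48594373-48594432, reverse strand): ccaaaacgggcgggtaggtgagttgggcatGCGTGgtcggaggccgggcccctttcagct
PGK1 (chrX:77359516-77359575, forward strand): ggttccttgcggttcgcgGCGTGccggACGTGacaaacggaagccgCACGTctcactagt
ENO1 (chr1:8938860-8938919, reverse strand): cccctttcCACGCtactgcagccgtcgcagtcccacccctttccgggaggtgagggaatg
LDHA (chr11:18415990-18416049, forward strand): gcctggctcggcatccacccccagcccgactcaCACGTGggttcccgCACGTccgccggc
PDK1 (chr2:173420758-173420817, forward strand): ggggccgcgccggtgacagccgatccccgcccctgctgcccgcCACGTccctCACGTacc
CA9 (chr9:35673865-35673924, forward strand): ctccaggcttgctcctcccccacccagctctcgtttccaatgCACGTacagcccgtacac
PGK1 and LDHA each held 3 cores within their 60 bases, HK2, PFKFB3 and PDK1 held 2 (in PFKFB3 both lie in 1 E-box), and PFKFB4, ENO1 and CA9 held 1.

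On GRCh37 the 10 genes lie on 8 chromosomes. SLC2A1 (Entrez ID 6513) and ENO1 (2023) are reverse-strand genes of chromosome 1, at 43391024 to 43424564 and at 8921059 to 8939249. HK2 (3099) and PDK1 (5163) are forward-strand genes of chromosome 2, at 75061254 to 75120486 and at 173420101 to 173473397. PFKFB4 (5210) is on the reverse strand of chromosome 3 (48555117 to 48599448). On the forward strand are PFKFB3 (5209) at 6186897 to 6296607 of chromosome 10 and PGK1 (5230) at 77166236 to 77384792 of chromosome X. So are LDHA (3939) at 18416107 to 18429972 of chromosome 11, CA9 (768) at 35673925 to 35681156 of chromosome 9 and VEGFA (7422) at 43737921 to 43754224 of chromosome 6. Exons of CA9 share 571 bp with ARHGEF39 on the other strand, and the libraries did not keep strand, so reads from the 2 genes in that stretch cannot be told apart. SLC2A1, PDK1 and VEGFA share 497, 257 and 188 exonic bases with a long noncoding RNA. LDHA, ENO1 and PGK1 have 6, 4 and 2 annotated pseudogenes named after them, and how the counting treated reads that match a pseudogene too is not stated.

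Total counts ranged from 17757206 to 21756536 in A431 and from 19871048 to 22809339 in MDA-MB-231. Among the markers of the lines, EGFR, KRT5, KRT14, TP63 and CDH1 were higher in untreated A431 and VIM, ZEB1, FN1 and AXL in untreated MDA-MB-231, while DSP and CD44 had like levels and SPARC stayed under 4 CPM in both. Untreated MDA-MB-231 replicate 1 stood apart: the chi-square per degree of freedom over genes was 75 and 86.6 against its fellow replicates and 2.73 between those, and its deviation from them fell with the GC content of a gene (Spearman rho -0.68 across genes). The vehicle libraries of A431 also differed among themselves, with 10.4 to 29.9 against 1.88 to 5.71 in the other A431 groups. LDHA, PGK1 and PDK1, the members of lowest GC content (41.8%, 42.8% and 39.5%), were higher in that library than in the 2 other untreated MDA-MB-231 libraries, and the 7 others were lower. For the 10 genes, each result that rests on untreated MDA-MB-231 cells is therefore given with and without replicate 1 where the call differs. Further genes named below were not refitted without it.

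CPM, the read count scaled to the size of the library, was computed with TMM factors over the 27 libraries, and CPM per kilobase of the canonical transcript (RPKM) allows genes to be set side by side. In untreated MDA-MB-231 cells the mean level per length was 2090 RPKM for ENO1 and 1330 for LDHA, far above 311 for PGK1, 212 for SLC2A1 and 173 for VEGFA. HK2 had 25.9 RPKM, PFKFB3 had 21.7, PFKFB4 had 12, CA9 had 2.76 and PDK1 had 2.07. In untreated A431 cells ENO1 and LDHA again led with 1590 and 848 RPKM, and VEGFA at 304 stood above PGK1 at 171 and SLC2A1 at 79.7. PFKFB3 had 30.2 RPKM there, HK2 had 9.34, CA9 had 5.49, PFKFB4 had 3.11 and PDK1 had 1.09. CA9 was counted with only 8 to 166 reads per library, so its values are the least precise of the 10, and 3 reads correspond to 0.133 to 0.186 CPM.

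**Figure D1:**
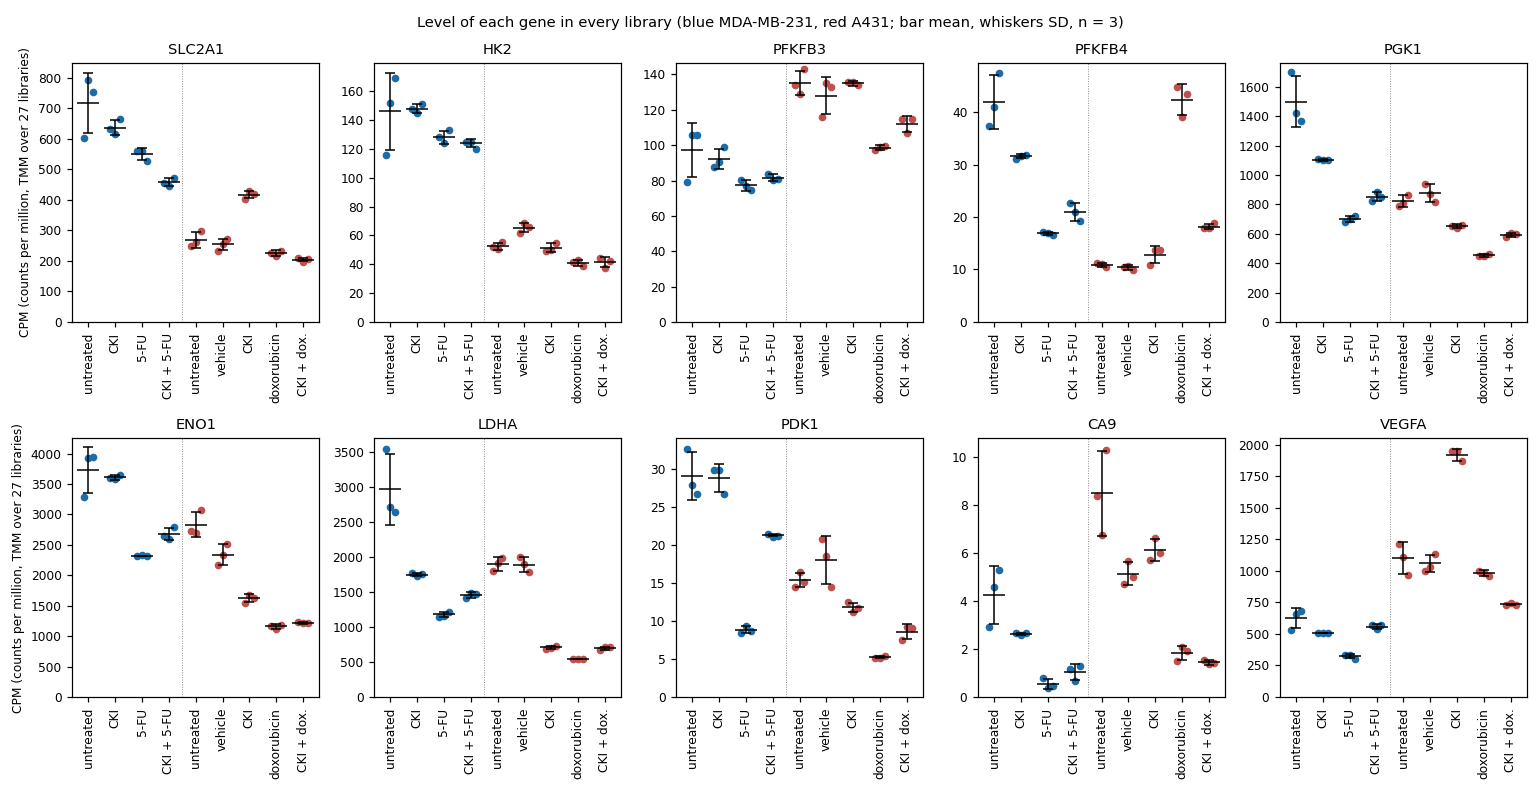
Level of each of the 10 genes in CPM (linear axis from 0, 1 panel per gene) in the 27 libraries, by group, with blue points for MDA-MB-231, red points for A431, a black bar for the mean and whiskers for the SD of 3 replicates. LDHA, PGK1, PDK1 and ENO1 are highest in untreated MDA-MB-231 and lowest in doxorubicin-treated A431, PFKFB4 rises from 10.9 to 42.4 CPM with doxorubicin, and VEGFA peaks in CKI-treated A431 cells at 1920 CPM.

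The 2 lines held different levels of these genes before any treatment, as they did of most genes. Untreated A431 cells had less of SLC2A1, HK2 and PFKFB4 than untreated MDA-MB-231 cells and more of PFKFB3, CA9 and VEGFA. SLC2A1 had 249, 261 and 299 CPM in the 3 untreated A431 libraries and 604, 793 and 755 CPM in the MDA-MB-231 libraries, a log2 difference of -1.47 (SE 0.135, adjusted p = 3.1e-05, edgeR quasi-likelihood test). HK2 had 51.8, 50.6 and 55.1 CPM in A431 and 116, 152 and 169 CPM in MDA-MB-231 (-1.53, SE 0.15). PFKFB4 showed the widest gap, with 11.2, 11 and 10.4 CPM against 37.3, 41.0 and 47.5 CPM (-2.01, SE 0.124, adjusted p = 3.4e-06). In each of the 3 genes the libraries of the lines did not overlap. PDK1, PGK1, LDHA and ENO1 were also lower in A431, by log2 differences of -0.98, -0.92, -0.70 and -0.46, whereas CA9 (0.92), VEGFA (0.75) and PFKFB3 (0.41) were higher. ARHGEF39, which shares exonic bases with CA9, was higher in A431 too, at 23.3 ± 1.21 against 8.82 ± 0.719 CPM (SD, n = 3). All 10 members passed an adjusted p of 0.05, which 72.9% of the 14181 genes tested did, and 3 were differentially expressed (DE), that is, also past an absolute log2 fold change of 1, as 41.5% of all genes were. The members were thus DE no more often than genes at large. The call of PFKFB3 (adjusted p = 0.024) was lost when any 1 of the 3 A431 libraries was left out, with adjusted p-values from 0.051 to 0.084. Without A431 replicate 2, or without MDA-MB-231 replicate 3, 5 members were DE. A difference between the lines cannot be told apart from any difference in how they were grown and sequenced.

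Across the 9 groups the highest mean exceeded the lowest 1.75-fold for PFKFB3, between 3.22-fold and 5.94-fold for 8 genes, and 15.7-fold for CA9. Untreated MDA-MB-231 cells held the highest mean of SLC2A1, PGK1, ENO1, LDHA and PDK1, and CKI-treated MDA-MB-231 cells that of HK2, although the libraries of these 2 groups overlapped for SLC2A1, HK2, ENO1 and PDK1. Doxorubicin-treated A431 cells held the lowest mean of HK2, PGK1, ENO1, LDHA and PDK1, and the highest of PFKFB4, where its libraries overlapped with those of untreated MDA-MB-231. The order of PGK1 and LDHA was the sharpest, with 2 of 8 neighbouring pairs of groups overlapping, and that of HK2 and PFKFB3 the least sharp, with 5 of 8. Levels of SLC2A1 and HK2 separated the lines entirely, since every MDA-MB-231 library lay above every A431 library, and VEGFA did the reverse, with every A431 library above every MDA-MB-231 library.

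5-FU lowered most of the family in MDA-MB-231 cells. Against untreated cells 9 of 10 members fell and none rose at an adjusted p of 0.05, where 28.5% of the 13999 genes tested fell, and 5 members were DE and lower, where 7.31% of all genes were. The median log2 fold change of the members was -1.01 and that of all genes tested 0. All comparisons with untreated cells of a line share the same 3 untreated libraries. CA9 had 2.92, 4.59 and 5.28 CPM untreated and 0.774, 0.378 and 0.474 CPM with 5-FU, from 8 to 17 reads per library in the latter. Its log2 fold change was -2.95 (SE 0.307, adjusted p = 6.3e-06), and the groups were well apart. ARHGEF39, the gene that overlaps CA9, went from 8.82 ± 0.719 to 6.87 ± 0.532 CPM (SD, n = 3).

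PDK1, the gatekeeper between lactate and mitochondrial oxidation, fell from 32.7, 27.9 and 26.7 CPM to 8.47, 9.37 and 8.72 CPM with 5-FU, which is 3.27-fold (log2 fold change -1.71, SE 0.0916, adjusted p = 3.8e-08). LDHA, the lactate-forming partner in that branch, fell from 3550, 2720 and 2650 CPM to 1150, 1160 and 1220 CPM, or 2.51-fold (-1.33, SE 0.093). The untreated values of LDHA spread more than the treated ones, with replicate 1 the highest, and no treated library came near them. PFKFB4 fell 2.47-fold, from 37.3, 41.0 and 47.5 CPM to 17.2, 16.9 and 16.6 CPM (-1.30, SE 0.0913). PGK1 fell 2.12-fold, from 1700, 1420 and 1370 CPM to 683, 700 and 723 CPM (-1.09, SE 0.0734, adjusted p = 2.2e-07). VEGFA, the angiogenic factor, fell 1.92-fold, from 532, 655 and 680 CPM to 332, 333 and 305 CPM (-0.94, SE 0.0828). ENO1 (-0.67), SLC2A1 (-0.38) and PFKFB3 (-0.33) fell by less, and HK2 had a log2 fold change of -0.18 (adjusted p = 0.17). The call of PFKFB3 (adjusted p = 0.013) was lost with library size alone (-0.20, adjusted p = 0.1), with only the compared groups in the fit (0.075), and without untreated replicate 2 (0.058), untreated replicate 3 (0.053) or 5-FU replicate 3 (0.05). Without untreated replicate 1 there were again 5 DE members, but PGK1 (-0.99) was no longer among them and VEGFA (-1.04) was, and HK2 passed with -0.32 (adjusted p = 3.5e-06).

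CKI alone moved the family less in MDA-MB-231 cells. No member was DE by edgeR or by DESeq2, where 5.96% of all genes were by edgeR, while 5 fell and none rose at an adjusted p of 0.05, where 18.8% of all genes fell. The median over the members was -0.24 and that over all genes -0.01. LDHA led with 1770, 1730 and 1760 CPM under CKI, all below the untreated libraries, a 1.69-fold decrease (log2 fold change -0.76, SE 0.092, adjusted p = 6.3e-05). PGK1 fell to 1110, 1100 and 1100 CPM (-0.45, SE 0.0727) and PFKFB4 to 31.1, 31.7 and 31.9 CPM (-0.41, SE 0.0883). VEGFA fell to 507, 507 and 506 CPM (-0.30, SE 0.0821, adjusted p = 0.014), which did not pass with only the compared groups in the fit (adjusted p = 0.11). CA9 had 2.65, 2.59 and 2.65 CPM (-0.70, SE 0.239, adjusted p = 0.037), and this call was lost when any library but untreated replicate 1 was left out, with adjusted p-values from 0.088 to 0.13. It was also lost with library size alone (0.057) and with only the compared groups (0.078). ARHGEF39, the gene that overlaps CA9, went from 8.82 ± 0.719 to 7.18 ± 0.191 CPM with CKI (SD, n = 3). PDK1 (-0.01, 95% interval -0.20 to 0.17), HK2 (0.02, -0.20 to 0.25) and ENO1 (-0.05, -0.20 to 0.10) showed no detectable difference, and SLC2A1 (-0.17) and PFKFB3 (-0.08) did not pass either. Without untreated replicate 1, SLC2A1 (-0.28), PFKFB3 (-0.21) and ENO1 (-0.13) passed as well, and SLC2A1 also passed with offsets for GC content and length (-0.17, adjusted p = 0.017).

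**Figure D2:**
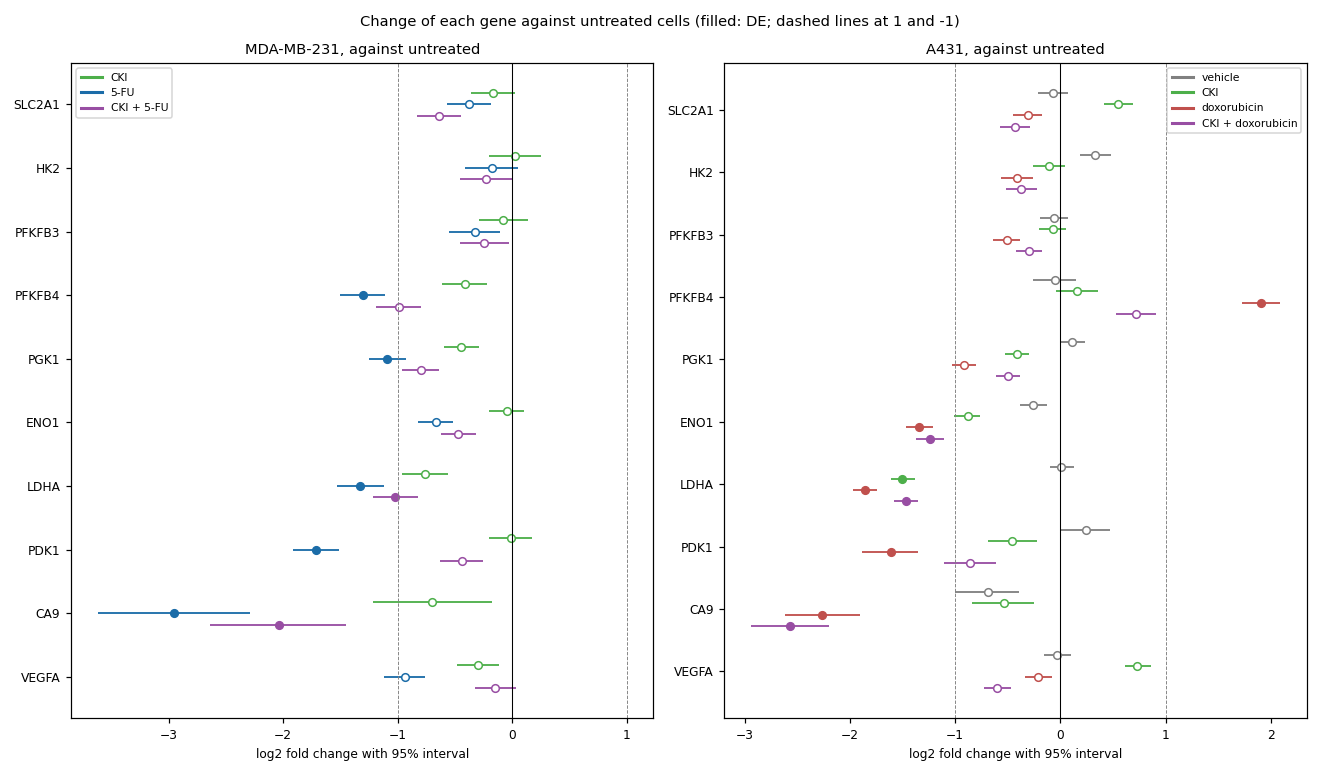
Log2 fold change of each gene against the untreated cells of its line (x axis, with 95% intervals; dashed lines at 1 and -1; filled circles mark DE members) for 3 treatments of MDA-MB-231 (left) and for the vehicle and 3 treatments of A431 (right), all from the edgeR fits. Almost every gene lies left of 0 with 5-FU and with doxorubicin, where CA9 reaches -2.95 and -2.26, and PFKFB4 is the exception at 1.91 with doxorubicin.

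When CKI was added to 5-FU, several members stood higher than with 5-FU alone. At an adjusted p of 0.05, 6 members were higher and SLC2A1 was lower (-0.26), where 25.9% of all genes were higher and 24.5% lower. PDK1 alone was DE, where 5.26% of all genes were DE and higher. It had 21.4, 21.1 and 21.2 CPM with both agents and 8.47, 9.37 and 8.72 CPM with 5-FU, a 2.40-fold difference (log2 fold change 1.26, SE 0.092, adjusted p = 6.9e-07), with no overlap. VEGFA had 567, 539 and 568 CPM against 332, 333 and 305 CPM (0.79, SE 0.0826, adjusted p = 1.1e-05). PFKFB4 (0.31), LDHA (0.31), PGK1 (0.28) and ENO1 (0.21) were higher by less. The smallest of these changes did not hold when 1 library was left out. ENO1 lost its call without any 1 of the 3 libraries with 5-FU alone or without combination replicate 3 (adjusted p-values from 0.058 to 0.089). SLC2A1 lost it without 5-FU replicate 1 or 2 or combination replicate 1 or 2 (0.065 to 0.076), LDHA without 5-FU replicate 1 (0.054) and PFKFB4 without combination replicate 1 (0.063). CA9 had 1.16, 0.663 and 1.28 CPM with both agents, from 15 to 27 reads (0.91, SE 0.377, adjusted p = 0.061). It passed and was DE without 5-FU replicate 1 (1.26) or without combination replicate 2 (1.16). It also passed by DESeq2 (0.91, adjusted p = 0.035), with offsets for GC content and length (0.98, 0.016) and with only the compared groups (0.91, 0.026).

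Against untreated cells the combination still left 7 members lower and none higher, where 23.7% of all genes were lower. CA9 (-2.04, SE 0.273) and LDHA (-1.02, SE 0.0924) were DE and lower, as 4.76% of all genes were, and PFKFB4 (-0.99), PGK1 (-0.80), SLC2A1 (-0.64), ENO1 (-0.47) and PDK1 (-0.44) were lower by less. ARHGEF39, which overlaps CA9, had 8.82 ± 0.719 CPM untreated and 4.56 ± 0.197 CPM with both agents (SD, n = 3). VEGFA (-0.15, adjusted p = 0.15), PFKFB3 (-0.25, adjusted p = 0.056) and HK2 (-0.23, adjusted p = 0.09) did not pass, although all 3 did without untreated replicate 1 (-0.25, -0.37 and -0.37). Without that library the DE members were CA9 and PFKFB4 (-1.07), since LDHA was at -0.87. With all libraries, PFKFB3 passed by DESeq2 (-0.27, adjusted p = 0.032) and with RLE factors (-0.27, 0.04), and HK2 with offsets for GC content and length (-0.17, 0.049). Against CKI alone the combination lowered 7 members, where 20% of all genes were lower, and only CA9 was DE (-1.34, SE 0.289, adjusted p = 0.0034), where 2.54% of all genes were DE and lower. SLC2A1 fell by 0.47 on the log2 scale in that comparison, and VEGFA stood at 0.15 (adjusted p = 0.16). Of the 7, LDHA (-0.26, adjusted p = 0.039) lost its call in each of the 6 fits that left out a library (adjusted p-values from 0.071 to 0.11) and with library size alone (0.12). VEGFA passed as higher with library size alone (0.22, adjusted p = 0.043), with offsets for GC content and length (0.18, 0.021) and with only the compared groups (0.15, 0.0028). HK2, which did not pass in the main fit, passed as lower with those offsets (-0.22, adjusted p = 0.018) and with only the compared groups (-0.25, 2.7e-05). PFKFB3 passed as lower with only the compared groups (-0.17, 0.0065).

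The effect of CKI was compared between cells with and without 5-FU by the interaction term of the same fit. Its log2 value is the effect of CKI in the presence of 5-FU minus its effect in the absence of 5-FU, and the 2 effects rest on different libraries. It was 1.28 for PDK1 (SE 0.125, adjusted p = 2.9e-05), the result of -0.01 without and 1.26 with 5-FU. It was 1.09 for VEGFA (SE 0.116, adjusted p = 5.3e-05), from -0.30 and 0.79, and 1.07 for LDHA (SE 0.13, adjusted p = 0.00012), from -0.76 and 0.31. CA9 had 1.62 (SE 0.446, adjusted p = 0.017), from -0.70 and 0.91. These 4 members were DE in the interaction, where 3.04% of all genes were DE with a positive term, and PFKFB4 and PGK1 (both 0.73) passed without reaching 1, so that 6 members had a positive term at an adjusted p of 0.05, as 17.1% of all genes did. ENO1 (0.25), PFKFB3 (0.16), HK2 (-0.08) and SLC2A1 (-0.09) did not pass. Leaving out untreated replicate 1 took LDHA to 0.92 and left PDK1 (1.19), VEGFA (1.19) and CA9 (1.82) DE. ENO1 (0.34, adjusted p = 3e-06) and PFKFB3 (0.29, adjusted p = 0.0016) then passed too, so that 8 members did. Leaving out combination replicate 3 gave CA9 an adjusted p of 0.052. Offsets for GC content and length took LDHA to 0.97, and with them ENO1 (0.31, adjusted p = 0.0029) and PFKFB3 (0.24, adjusted p = 0.0094) passed.

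In A431 cells the vehicle changed little of the family. No member was DE, where 2.54% of all genes were, by edgeR and by DESeq2, and 4 had an unadjusted p under 0.05. HK2 rose from 51.8, 50.6 and 55.1 CPM to 61.8, 68.3 and 65.7 CPM (log2 fold change 0.33, SE 0.0707), ENO1 fell by 0.26 on the log2 scale, and CA9 fell from 8.39, 6.77 and 10.3 CPM to 4.73, 5.69 and 5.02 CPM (-0.69, SE 0.147, adjusted p = 0.00066). The shares of all genes that rose and fell were 23.2% and 19.3%. ARHGEF39, which overlaps CA9, went from 23.3 ± 1.21 to 17.9 ± 2.27 CPM with the vehicle (SD, n = 3). The drop of ENO1 and that of CA9 did not pass with offsets for GC content and length (-0.10 and -0.34), whereas LDHA (-0.17, adjusted p = 0.005) and PGK1 (-0.14, adjusted p = 0.023) passed as lower. PGK1 passed as higher (0.16) without untreated replicate 3 or vehicle replicate 3, and PDK1 (0.38, adjusted p = 0.002) without vehicle replicate 3. The labels do not say which treated groups held the vehicle, so untreated cells were the main control.

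CKI moved members in both directions in A431 cells, as it did genes at large. LDHA, ENO1, CA9, PDK1 and PGK1 fell and VEGFA and SLC2A1 rose at an adjusted p of 0.05, where 33.7% of the 15881 genes tested fell and 33.3% rose. The median over the members was -0.26 and that over all genes 0. Only LDHA was DE, where 10.4% of all genes were DE and lower, a like share. The levels of the single genes follow. LDHA had 1800, 1910 and 1990 CPM in untreated cells and 691, 704 and 733 CPM under CKI, a 2.82-fold decrease (log2 fold change -1.5, SE 0.056, adjusted p = 2.3e-16). ENO1 fell 1.85-fold, from 2730, 2700 and 3070 CPM to 1550, 1680 and 1630 CPM (-0.88, SE 0.0602). PDK1 had 14.5, 16.4 and 15.2 CPM untreated and 12.5, 11.2 and 11.7 CPM with CKI (-0.46, SE 0.115), and PGK1 fell by 0.41. CKI and untreated libraries did not overlap for any of these 4 genes.

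VEGFA went the other way, from 1210, 1110 and 963 CPM to 1950, 1950 and 1870 CPM in A431 cells, a 1.66-fold increase with no overlap (log2 fold change 0.73, SE 0.0623, adjusted p = 3.6e-10). SLC2A1 rose 1.47-fold, from 249, 261 and 299 CPM to 404, 428 and 419 CPM (0.55, SE 0.067). The glucose carrier and the angiogenic factor thus rose while PGK1, ENO1 and LDHA fell. PFKFB4 (0.16), PFKFB3 (-0.07) and HK2 (-0.11) did not pass. PFKFB4 passed with library size alone (0.26), with offsets for GC content and length (0.21) and without CKI replicate 1 (0.26), and with those offsets HK2 (-0.29) passed and CA9 (-0.19, adjusted p = 0.22) did not. Set against the vehicle instead, LDHA (-1.51), VEGFA (0.77), SLC2A1 (0.62) and ENO1 (-0.63) kept their direction, HK2 passed with -0.44, and CA9 turned from -0.54 to 0.15 (adjusted p = 0.39). CA9 had 5.72, 6.63 and 6.01 CPM under CKI, below all 3 untreated and above all 3 vehicle libraries. The overlapping ARHGEF39 had 23.3 ± 1.21 CPM untreated and 7.63 ± 0.492 CPM under CKI (SD, n = 3).

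The response to CKI differed between the lines, as tested by a line-by-CKI interaction fitted to 12 libraries, those without treatment and those with CKI alone. VEGFA was the only DE member, where 8.87% of the 14848 genes tested were DE with a positive term, with a difference of 1.04 (SE 0.133, adjusted p = 2.9e-05) between a rise in A431 and a fall in MDA-MB-231. Without untreated MDA-MB-231 replicate 3 it was 0.97, still past the adjusted p, and no member was then DE. SLC2A1 (0.73) and PFKFB4 (0.58) were also more positive in A431, and ENO1 (-0.83), LDHA (-0.73) and PDK1 (-0.43) more negative, so that 6 members passed, where 47% of all genes did. PDK1 lost its call in 7 of the 12 fits that left out a library, with adjusted p-values from 0.05 to 0.11, and with no filter on low counts (0.063). PGK1 (0.04, 95% interval -0.21 to 0.30), PFKFB3 (0.01), HK2 (-0.13) and CA9 (0.16) did not pass. For 3 of these the outcome depended on the setting. With offsets for GC content and length CA9 was at 0.66 (adjusted p = 0.03), HK2 at -0.28 (0.046) and PGK1 at -0.20 (0.038). With the vehicle as the A431 control CA9 was at 0.86 (0.018) and HK2 at -0.46 (0.031).

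Doxorubicin moved all 10 members in A431 cells at an adjusted p of 0.05, which 80.6% of all genes passed, so that passing was common and the sizes tell more. Of the 10, 9 fell, where 39.9% of all genes fell, and the median was -0.71 against 0.02 over all genes. CA9, LDHA, PDK1 and ENO1 were DE and lower, where 14.3% of all genes were, and PFKFB4 was DE and higher, where 23% of all genes were. PFKFB4 had 11.2, 11 and 10.4 CPM untreated and 44.8, 39.0 and 43.4 CPM with doxorubicin, a 3.76-fold increase (log2 fold change 1.91, SE 0.087, adjusted p = 4.2e-15). Its sister PFKFB3 fell from 134, 129 and 143 CPM to 97.1, 99.2 and 99.4 CPM (-0.51, SE 0.0621), so the 2 isozymes moved in opposite directions. CA9 fell from 8.39, 6.77 and 10.3 CPM to 1.5, 2.08 and 1.9 CPM, from 30 to 41 reads (-2.26, SE 0.173), while the overlapping ARHGEF39 went from 23.3 ± 1.21 to 15.9 ± 1.12 CPM (SD, n = 3).

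LDHA fell 3.62-fold with doxorubicin, to 539, 545 and 550 CPM (log2 fold change -1.86, SE 0.0566, adjusted p = 3.7e-18), the lowest level among the 9 groups. PDK1 fell 3.05-fold, to 5.10, 5.17 and 5.38 CPM (-1.61, SE 0.128), and ENO1 fell 2.53-fold, to 1170, 1120 and 1190 CPM (-1.34, SE 0.0608). PGK1 fell 1.89-fold, to 448, 446 and 464 CPM (-0.92, SE 0.057), with no overlap in any of these 4 enzymes. HK2 (-0.41), SLC2A1 (-0.31) and VEGFA (-0.21) fell by less against untreated cells under TMM scaling, and the VEGFA libraries overlapped with the untreated ones. HK2 had 41.1 ± 2.06 CPM with doxorubicin and 65.3 ± 3.26 CPM with the vehicle (SD, n = 3). Over the alternatives, the vehicle as control among them, HK2 ran from -0.74 to -0.06 and PGK1 from -1.07 to -0.57. VEGFA did not pass with DESeq2 (-0.12, adjusted p = 0.089), RLE factors (-0.12, 0.079) or only the compared groups (-0.13, 0.051). With at least 10 counts in every library neither VEGFA (-0.04, 0.53) nor SLC2A1 (-0.14, 0.05) passed. With scaling by library size alone the median of all genes moved up by 0.34, and SLC2A1 (0.03) and VEGFA (0.13) changed sign and HK2 (-0.06) did not pass, so for these 3 no direction in RNA per library can be given. In bulk RNA a change in the share of reads cannot be told apart from a change in the total RNA of a cell or in the mix of cells.

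CKI given with doxorubicin lowered PFKFB4 from the level with doxorubicin alone. PFKFB4 had 17.9, 18 and 18.8 CPM with both agents against 44.8, 39.0 and 43.4 CPM with doxorubicin, a 2.28-fold difference with no overlap (log2 fold change -1.19, SE 0.0798, adjusted p = 1.3e-11). It was the only DE member, where 8.03% of all genes were DE and lower. PDK1 was higher with both agents, at 7.56, 9.27 and 9.05 CPM (0.75, SE 0.135), as were PGK1 (0.42), LDHA (0.39) and PFKFB3 (0.21), where 33.8% of all genes were higher. VEGFA was lower, as 29.8% of all genes were, at 729, 741 and 732 CPM against 1000, 983 and 958 CPM (-0.39, SE 0.0623). SLC2A1 (-0.12), HK2 (0.04), ENO1 (0.10) and CA9 (-0.31) did not pass. ENO1 passed with offsets for GC content and length (0.30), and SLC2A1 with library size alone (-0.15), with at least 10 counts in every library (-0.16) and with only the compared groups (-0.15).

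Against untreated A431 cells the combination left all 10 members past an adjusted p of 0.05, as 79.2% of all genes were, with PFKFB4 higher (0.72) and 9 lower. CA9 (-2.57, SE 0.179), LDHA (-1.47, SE 0.0559) and ENO1 (-1.24, SE 0.0607) were DE and lower, as 13.8% of all genes were. PDK1 (-0.86), VEGFA (-0.60), PGK1 (-0.50), SLC2A1 (-0.43), HK2 (-0.37) and PFKFB3 (-0.30) fell by less. Over the alternatives, the vehicle as control among them, PDK1 ran from -1.22 to -0.54 and HK2 from -0.70 to -0.05. ARHGEF39, which overlaps CA9, had 5.1 ± 0.837 CPM with both agents (SD, n = 3). It had 23.3 ± 1.21 CPM in untreated cells and 7.63 ± 0.492 CPM with CKI alone. With library size alone SLC2A1 (-0.11, adjusted p = 0.086), HK2 (-0.05, 0.48) and PFKFB3 (0.02, 0.75) did not pass. Against CKI alone the combination was DE and lower in CA9 (-2.03, SE 0.185) and VEGFA (-1.34, SE 0.0631, adjusted p = 1.8e-14), where 9.06% of all genes were DE and lower, and SLC2A1 lay just inside the limit (-0.98, SE 0.0674). VEGFA thus went from the 1870 to 1950 CPM of CKI-treated cells to 729 to 741 CPM when doxorubicin was added. LDHA, at 674, 713 and 712 CPM with both agents and 691, 704 and 733 CPM with CKI, had a log2 difference of 0.03 (95% interval -0.08 to 0.15) that did not pass. It passed as higher with library size alone (0.24, adjusted p = 0.00019) and with at least 10 counts in every library (0.12, 0.044), and as lower with offsets for GC content and length (-0.21, 8.9e-05), so no direction can be given.

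**Figure D3:**
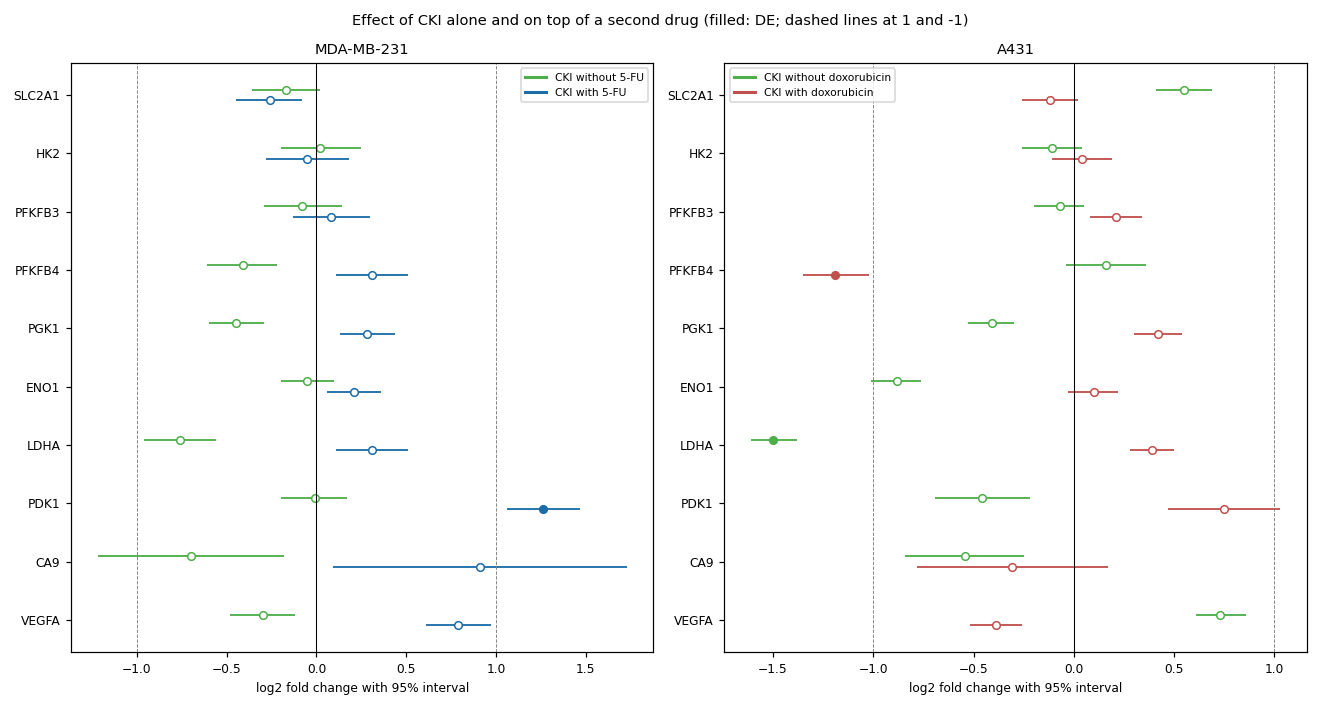
Effect of CKI on each gene as a log2 fold change with its 95% interval (x axis; dashed lines at 1 and -1; filled circles mark DE members), measured without (green) and with the second drug, which is 5-FU in MDA-MB-231 (left, blue) and doxorubicin in A431 (right, red). LDHA moves from -0.76 to 0.31 on the left and from -1.5 to 0.39 on the right, whereas VEGFA moves from -0.30 to 0.79 on the left and from 0.73 to -0.39 on the right.

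The interaction of CKI and doxorubicin was DE for 4 members. It was 1.89 for LDHA (SE 0.0784, adjusted p = 1.4e-14) and 1.21 for PDK1 (SE 0.177, adjusted p = 4e-06), where 8.56% of all genes were DE with a positive term. It was -1.34 for PFKFB4 (SE 0.125) and -1.13 for VEGFA (SE 0.0881, adjusted p = 3e-10), where 10.9% were DE with a negative term. ENO1 (0.98), PGK1 (0.83), PFKFB3 (0.29) and SLC2A1 (-0.67) passed without reaching 1, so that 8 members passed where 57.4% of all genes did, and HK2 (0.15) and CA9 (0.24) did not pass. PFKFB3 did not pass with library size alone (0.15, adjusted p = 0.12). HK2 passed with offsets for GC content and length (0.30) and with the vehicle as control (0.48), and CA9 was at -0.46 with the vehicle. LDHA and PDK1 had a positive interaction of CKI with the second drug in both lines, and VEGFA had a positive term with 5-FU in MDA-MB-231 and a negative one with doxorubicin in A431. The lines received different second drugs, so a difference between these terms cannot be assigned to the line or to the drug, and it was not tested.

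Over the libraries of MDA-MB-231 the 10 members varied together: the Pearson correlation of log2 CPM was above 0 in 45 of 45 pairs and ran from 0.34 to 0.98 over 12 libraries. In A431 it ran from -0.95 to 0.98 over 15 libraries, and 9 of the 11 negative pairs included PFKFB4. The libraries fall into groups of treatment and share their scaling, so these values are descriptions. By the same measure, centred on the mean of each line over all 27 libraries, the genes most like each member among 13373 were not members of the family. LDHA was most like HNRNPA1 (r = 0.99) and HNRNPK (0.96), ENO1 like ACOT7 (0.99) and EFHD2 (0.98), SLC2A1 like CD99L2 (0.97) and IGFBP4 (0.93), and PFKFB4 like CABLES1 (0.97) and CTSF (0.96). CA9 followed RALGDS (0.96) and COL4A2 (0.95), PDK1 followed THADA and EEFSEC (both 0.95), PFKFB3 followed CAPN1 (0.95) and ABR (0.94), VEGFA followed CRELD1 (0.94) and TK2 (0.93), PGK1 followed DUS2 and SMS (both 0.93), and HK2 followed PRPF8 and MIDEAS (both 0.86).

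**Figure D4:**
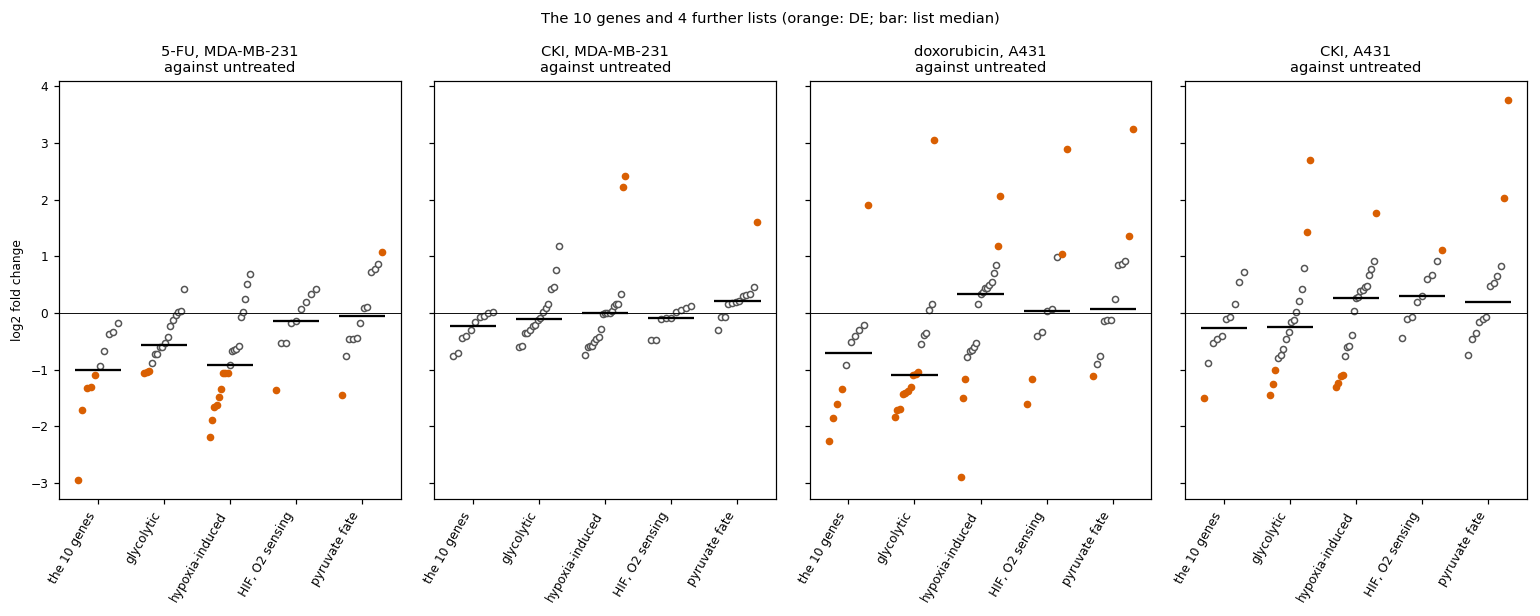
Log2 fold change (y axis) of the 10 genes and of the genes of 4 further lists in 4 comparisons with untreated cells (panels), with orange points for DE genes, open points for the others and a bar for the median of the list. With 5-FU in MDA-MB-231 the median of the hypoxia-induced list is -0.92, and with doxorubicin in A431 that of the glycolytic list is -1.09 while that of the hypoxia-induced list is 0.33.

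Another 4 lists of related genes were read beside the 10. Untreated MDA-MB-231 replicates 1, 2 and 3 had 422, 323 and 331 CPM of BNIP3 and 429, 348 and 348 CPM of HIF1A. They had 157, 295 and 312 CPM of PFKL and 435, 656 and 658 CPM of PFKP. Whether the calls of list genes against these cells hold without replicate 1 was not tested. The glycolytic list held the 16 other carriers and enzymes of the path from glucose to exported lactate. With 5-FU 11 of its 16 genes fell and none rose in MDA-MB-231 cells, with a median of -0.56, where 28.5% of all genes fell and 28.6% rose. ALDOC (-1.07), PFKL (-1.05) and PFKP (-1.02) were DE and lower, where 7.31% of all genes were. With doxorubicin 13 of the 16 fell and 2 rose in A431 cells, with a median of -1.09, where 39.9% of all genes fell and 40.7% rose. Of the 16, 10 were DE and lower, where 14.3% of all genes were. LDHB (-1.69), the lactate dehydrogenase subunit of aerobic tissue, GPI (-1.83), which interconverts hexose phosphates, PGAM1 (-1.31) and HK1 (-1.38) had the smallest adjusted p-values. With CKI 9 fell and 4 rose in A431 cells, where 33.7% and 33.3% of all genes did. TPI1 (-1.25), GAPDH (-1.0) and GPI (-1.45) were DE and lower there, the aldolase ALDOC was DE and higher (1.42), and the enolase ENO2 rose (0.43) where ENO1 fell. In MDA-MB-231 cells 5 fell and 3 rose with CKI, none of them DE, where 18.8% and 17.4% of all genes fell and rose.

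The hypoxia-induced list held 19 further measured genes that low oxygen is known to raise. With 5-FU 14 of 19 fell and 2 rose, where 28.5% and 28.6% of all genes did. Of the 19, 9 were DE and lower, where 7.31% of all genes were, led by CA12 (-1.63), BNIP3 (-1.48), NDRG1 (-1.66) and AK4 (-1.07). BNIP3, a mitophagy receptor, went from 359 ± 54.8 to 128 ± 2.48 CPM (SD, n = 3), and CA12 is a surface carbonic anhydrase like CA9. In A431 cells with doxorubicin 8 of the 19 fell and 10 rose, where 39.9% and 40.7% of all genes did, with a median of 0.33. Of the 19, 3 were DE and lower and 2 DE and higher, where 14.3% and 23% of all genes were. DDIT4, an inhibitor of mTORC1, fell most (-2.89, SE 0.106), next to AK4 (-1.5) and CA12 (-1.17). ANGPTL4 rose from 2.51 ± 0.182 to 5.93 ± 0.518 CPM (SD, n = 3), and VLDLR from 5, 2 and 3 to 19, 19 and 14 reads. With CKI 3 rose and 7 fell in MDA-MB-231 cells, where 17.4% and 18.8% of all genes did. ANGPTL4 (2.41, SE 0.0907) and STC2 (2.22, SE 0.355) were DE and higher, as 526 of the 13999 genes tested were. In A431 cells CKI raised 7 and lowered 8, where 33.3% of all genes rose and 33.7% fell, with ANGPTL4 again higher (1.76) and STC2 (-1.31), BNIP3 (-1.23) and DDIT4 (-1.12) lower. Of the 19, 1 was DE and higher and 4 DE and lower, where 1901 and 1653 of the 15881 genes tested were. ANGPTL4, a secreted inhibitor of lipoprotein lipase that fatty acid sensors also induce, thus rose with CKI in both lines while LDHA of the same hypoxia response fell. In the interaction of CKI and 5-FU 12 of the 19 genes passed with a positive term, where 17.1% of all genes did. Another 3 passed with a negative term, and the share of all genes that did so is not given, so these 3 cannot be set against it. Of the 19, 0 were DE with a negative term, where 533 of the 13999 genes tested were. EGLN3 (1.55), BNIP3 (1.09) and CA12 (1.00) were DE, beside the 4 DE members, where 3.04% of all genes were DE with a positive term.

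The list of HIF and oxygen sensing genes held 10 genes, of which 9 were tested. The mRNA of HIF1A, the alpha subunit of HIF-1, which is controlled mostly as protein, went from 375 ± 46.6 to 336 ± 13.4 CPM with 5-FU, and only ARNT2 (-1.36) of this list was DE there. With doxorubicin HIF1A (-1.16, SE 0.065) and EGLN1 (-1.61), an oxygen sensor, were DE and lower, and HIF1AN (1.04) and CITED2 (2.90, SE 0.0904), both inhibitors of HIF activity, were DE and higher. CITED2 had 28.5 ± 1.21 CPM untreated and 221 ± 5.32 CPM with doxorubicin (SD, n = 3). CKI raised CITED2 (1.11) in A431 cells as well, and the line difference of the CKI effect was DE and positive for HIF1A (1.09), EPAS1 (1.41) and CITED2 (1.07), since HIF1A stood at 398 ± 3.81 CPM against 249 ± 15.3 untreated in A431 and at 270 ± 6.78 against 375 ± 46.6 in MDA-MB-231. HIF activity itself was not measured.

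Of the list of pyruvate fate and glucose signalling, 12 of 14 genes were tested in each line. PDK4, a sister kinase of PDK1 that fasting induces, was DE and higher with CKI in MDA-MB-231 cells, from 56, 46 and 47 to 141, 154 and 159 reads (1.60, SE 0.143), where PDK1 had shown no detectable difference. With 5-FU the gluconeogenic enzyme gene FBP1 was DE and lower (-1.45) and ARRDC4, a glucose-responsive arrestin, DE and higher (1.07). In A431 cells PFKFB2, the third gene of the PFKFB family named here, rose with CKI from 40.9 ± 3.05 to 176 ± 2.16 CPM (2.03, SE 0.0605, adjusted p = 4.5e-18), beside the small change of PFKFB3 and PFKFB4. TIGAR, a p53-induced phosphatase that acts on the product of the PFKFB enzymes, rose with doxorubicin (1.35) and PDHA1, a subunit of pyruvate dehydrogenase, fell (-1.11). FBP1 had 2 to 3 reads in untreated A431 libraries and 33 to 52 with CKI. The 4 lists were chosen with results of these data known, so their counts are descriptions.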

How the data were processed

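RNA was sequenced with paired-end reads from unstranded libraries (NEBNext Ultra) of MDA-MB-231 and A431 cells. The values the authors deposited are raw read counts, with a row per gene and a column per library, made from reads trimmed with Trim Galore 0.3.7 and aligned to hg19 with STAR 2.5.3a. The counting tool and annotation are not given in the sources used here. All 27 columns were matched to a labelled sample. A symbol was found for 24422 rows, and 99.5% of rows had a length and GC content on GRCh37.

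Counts were tested with edgeR 4.0.16 (R 4.3.3): TMM, filterByExpr, glmQLFit and glmQLFTest with all groups of a line in the fit, and only the compared groups where the contrast spans both lines. All 10 genes passed the filter in every comparison. P-values were adjusted by Benjamini-Hochberg over all genes tested. Genes were called DE where the adjusted p was under 0.05 and the log2 fold change exceeded 1 in either direction, as in the study. Fold changes come from these fits and CPM from TMM over the 27 libraries, so that their ratios differ slightly, and log2 CPM for correlations used a prior count of 2. The fits were tested on simulated data. Alternatives were DESeq2 1.42.0, RLE factors, library size alone, no filter, at least 10 counts in every library, offsets for GC content and length (lowess span 0.3), 1 row per Ensembl ID, the replicate block, the compared groups alone, the vehicle as control, the adjusted p alone, and leaving out each library. The genes and lists were chosen with earlier results of these data known. The genes named beside the 10 are, of each list and comparison, up to 4 DE genes of smallest adjusted p, and for each member the 2 genes of highest correlation. ENO2 with CKI in A431 cells was not DE and stands outside this rule. HIF1A with 5-FU and with CKI in each line, and STC2, ANGPTL4 and VLDLR with doxorubicin, were named after their values were seen. So were the list genes whose untreated MDA-MB-231 replicates are printed side by side.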

Additional observations from a re-analysis of the deposited data

Results flagged for a closer look

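The effect of CKI differed between cells with and without 5-FU in MDA-MB-231 for 4 of the 10 genes, by the interaction term of the edgeR fit (log2 scale, adjusted p over all genes). The term was 1.28 for PDK1 (adjusted p = 2.9e-05), 1.09 for VEGFA (5.3e-05), 1.07 for LDHA (0.00012) and 1.62 for CA9 (0.017). The CA9 value rests on 8 to 27 reads per library in the groups with 5-FU.

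In A431 the effect of CKI differed between cells with and without doxorubicin for LDHA (1.89, adjusted p = 1.4e-14), PDK1 (1.21, 4e-06), PFKFB4 (-1.34, 4.9e-09) and VEGFA (-1.13, 3e-10). The libraries of each group lay close together for these genes, and every one of the 3 combination libraries lay on the same side of the 3 doxorubicin libraries in each of them.

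The effect of CKI on VEGFA differed between the lines by 1.04 (adjusted p = 2.9e-05), with all 3 CKI libraries above the untreated ones in A431 and all 3 below them in MDA-MB-231.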

How the results depend on the processing

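At 8 to 166 reads per library CA9 has the widest error of the members, and the GC tilt of untreated MDA-MB-231 replicate 1 and of the vehicle libraries limits small changes. Of 2584 values of single members under the alternatives, 2409 kept their direction and side of the threshold, 62 became weaker and 61 stronger. Another 13 changed sign with a call in at least 1 of the 2 fits compared, and 39 changed sign without a call in either, among 20 results whose reported log2 values were at most 0.24 in size. The cause was not tested where a value changed. Replicate numbers did not pair the libraries: same-number correlations ran from -0.29 to 0.12, with 1 of 48 over 0.1, and the replicate block changed no count of DE members. Within the MDA-MB-231 comparison of CKI with untreated cells it took CA9 to -0.69 (adjusted p = 0.056), and in that of the combination with CKI it took LDHA to -0.26 (adjusted p = 0.056).

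The 13 sign changes that involve a call were these. With GC content and length offsets, alone and with the replicate block, the vehicle effect was -0.14 for PGK1 and -0.17 for LDHA, the combination against CKI in A431 was -0.21 for LDHA, and the line difference of the CKI effect was -0.20 for PGK1. With library size alone doxorubicin gave 0.03 for SLC2A1 and 0.13 for VEGFA, the doxorubicin combination against untreated cells 0.02 for PFKFB3, and against CKI 0.12 for PGK1. With the vehicle as control CKI gave 0.15 for CA9 in A431.

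By the adjusted p alone the members called were 5 (CKI), 9 (5-FU), 7 (CKI with 5-FU), 7 (CKI with 5-FU against 5-FU) and 7 (against CKI) in MDA-MB-231. In A431 they were 3 (vehicle), 7 (CKI), 10 (doxorubicin), 10 (CKI with doxorubicin), 6 (that against doxorubicin) and 8 (interaction), and for the lines 6 (interaction with CKI) and 10 (untreated). Passing was common: 80.6% of all genes passed with doxorubicin, 79.2% with its combination and 57.4% in its interaction. For the lines 47% passed in the interaction with CKI and 72.9% untreated. The other shares stand with their results above. With 5-FU and CKI against untreated cells 1 member was DE under library size alone and 1 with at least 10 counts in every library, and against CKI 0 with that filter, which removes CA9. Of the 9 members left there, 6 had an adjusted p under 0.05 by edgeR.

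Leaving out 1 library gave 5 to 5 DE members for 5-FU, 2 to 3 for CKI with 5-FU, 1 to 2 for that against 5-FU (2 without 5-FU replicate 1 or combination replicate 2), 1 to 1 against CKI, 3 to 4 for the interaction and 0 to 0 for CKI in MDA-MB-231. In A431 it gave 0 to 0 for the vehicle, 1 to 1 for CKI, 5 to 5 for doxorubicin, 3 to 3 for the combination, 1 to 1 against doxorubicin, 2 to 3 against CKI and 4 to 5 for the interaction. It gave 0 to 1 for the line difference of the CKI effect and 3 to 5 for the untreated lines.

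Library size alone moved the median log2 fold change of all genes by 0.13 (5-FU), 0.14 (CKI with 5-FU), 0.11 (CKI in A431), 0.34 (doxorubicin), 0.31 (its combination), 0.21 (that against CKI) and -0.14 (its interaction). It changed the DE genes higher and lower from 842 and 1024 to 1142 and 768 with 5-FU, from 600 and 666 to 849 and 505 with CKI and 5-FU, from 177 and 356 to 225 and 266 for that against CKI, from 3650 and 2275 to 4725 and 1313 with doxorubicin, from 3446 and 2187 to 4490 and 1307 with its combination, from 2638 and 1439 to 3188 and 969 for that against CKI, and from 1360 and 1732 to 1028 and 2091 for the interaction.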

Other observations

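Untreated cells of the lines differed in which genes of the wider pathway they held. SLC2A3, the neuronal-type glucose carrier GLUT3, had 1218 to 1340 reads in the untreated MDA-MB-231 libraries and 0 to 2 in those of A431, and 22 to 35 reads in A431 cells given CKI with doxorubicin. SLC16A1, which encodes the lactate carrier MCT1, showed the reverse, with 4 to 16 reads in untreated MDA-MB-231 and 3380 to 3785 in untreated A431, and FBP1 had 1076 to 1333 against 2 to 3 reads. LOX, a collagen crosslinking enzyme, had 114 ± 4.87 CPM in MDA-MB-231 and 1.53 ± 0.0818 CPM in A431 (SD, n = 3). BNIP3 was at 359 ± 54.8 against 43.8 ± 1.11 CPM, while STC2, a secreted glycoprotein, was at 0.599 ± 0.461 against 83.9 ± 8.35 CPM. Of the hypoxia-induced list 12 of 19 genes were lower and 3 higher in A431 at an adjusted p of 0.05, with 9 and 1 DE, and of the glycolytic list 5 of 16 were lower and 5 higher. In this comparison 72.9% of all genes passed and 41.5% were DE, counting both directions. By direction, 3088 of the 14181 genes tested were DE and lower in A431 and 2798 were DE and higher. The hypoxia-induced list was thus DE and lower more often than genes at large, with a median of -0.96 against -0.02 over all genes. The median of the glycolytic list was -0.11. The shares of all genes that passed in each direction are not given.

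STC2 responded to CKI in opposite directions in the lines. It had 5, 9 and 23 reads in untreated and 65, 63 and 47 in CKI-treated MDA-MB-231, and 1287, 1479 and 1500 reads in untreated and 730, 663 and 638 in CKI-treated A431, and the line difference of the CKI effect was -3.53 (SE 0.344, adjusted p = 3e-06, edgeR). In A431 with doxorubicin STC2 rose to 2522, 2326 and 2388 reads and stood at 838, 812 and 777 with CKI added (-1.60, SE 0.0705).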
